A study of Mus musculus with 8 samples.

Results

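The 8 genes described here belong to the signalling of insulin and the insulin-like growth factors (IGFs), which runs from the cell surface to the nucleus. They encode 3 receptors (Insr, Igf1r and Igf2r), 2 docking proteins (Irs1 and Irs2) and 3 FoxO transcription factors (Foxo1, Foxo3 and Foxo4). Their N6-methyladenosine (m6A) peaks were mapped in mouse primary vascular smooth muscle cells (VSMCs) by m6A-RIP-seq, in which RNA fragments bound by an anti-m6A antibody (IP) are sequenced beside the unselected fragments (input). The cells came from the descending aorta of C57BL/6J mice and received lentivirus with a nontargeting control shRNA directed at a plant microRNA sequence (shCTR) or with 1 shRNA against Mettl14 (shMettl14), a subunit of the nuclear m6A writer. Both groups were thus transduced, and the knockdown lowers Mettl14 without deleting it. Replicates A and B of each shRNA gave 4 IP and 4 input samples, and each IP sample had 1 peak list. The labels do not say whether A and B were separate cultures, so the p-values below measure only the spread between these lists, which may be technical.

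A gene's peaks were the summits, the positions of highest signal within a called interval, that lay in its annotated exons. All 8 genes had at least 1 summit, and 6075 of the 55450 annotated genes did. Of 42744 summits in the 4 lists, 113 lay in the 8 genes: 28 of 11158 in shCTR A, 21 of 8655 in shCTR B, 42 of 13675 in shMettl14 A and 22 of 9256 in shMettl14 B. Merging overlapping intervals of the 4 lists placed them in 25 of 11361 regions, which are numbered here from 5′ to 3′ within each gene. The genes were selected on their place in the pathway, and Irs2 was chosen by the presence of calls in its 3′ UTR in the knockdown lists alone. That presence is therefore given as a description, without a test.

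The receptors for insulin and IGF1 are tyrosine kinases. Once a ligand binds, they phosphorylate the Irs docking proteins, which recruit phosphoinositide 3-kinase and so switch on the kinase AKT. AKT in turn phosphorylates FoxO factors, which then leave the nucleus and stop driving their targets. In VSMCs this pathway is known for its part in survival, growth and the contractile state. m6A is written on adenosines within the sequence DRACH (R stands for either purine, D for any base but C, H for any base but G), mostly in long internal exons and around stop codons.

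Each value below is a property of a called summit. The fold enrichment is the authors' ratio of IP to background at the summit, and the percentile places it among all summits of its list. The number of fragments is the IP pileup recovered from the deposited values, and positions are counted in nucleotides (nt) along the transcript from the first base of the stop codon, with negative values upstream. The median summit held 13 to 16 fragments in the 4 lists, so single peaks rest on few molecules. Each control list had the higher median, 16, while shMettl14 B had 13 and shMettl14 A had 14. The fragments given by region below are not scaled for this difference. A smaller number under shMettl14 is therefore not read as a loss. A peak needs both the RNA and the mark, and the lists hold no transcript level, so neither the knockdown nor the level of these genes could be read from them. The cell label could be checked by presence only. Exonic summits were found in 2 of 6 smooth muscle markers (Myh11 and Lmod1), 3 of 5 endothelial markers (Pecam1, Cdh5 and Kdr), 1 of 5 macrophage and leukocyte markers (Csf1r) and 1 of 4 fibroblast markers (Pdgfra). A marker without a summit, such as Acta2, may still be expressed, and whether other cell types were present was not tested.

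The sites closest to the strongest summits show what the peaks sit on. For each region the DRACH nearest to the median position of the strongest summits was located in the GENCODE M21 transcript and read 5′ to 3′ with 12 bases on each side of its A (GRCm38, DRACH in capitals). The 10 shown are examples from every gene but Foxo4. They include Igf1r region 3 and Foxo3 region 2, which had the highest fold enrichment, and the Irs2 region called in the knockdown lists alone.
Igf1r region 3, chr7:68226314-68226338, plus strand: ttttgatgagAGACAgccttacgct
Igf1r region 4, chr7:68230909-68230933, plus strand: ttatgactcgGGACTgttcaacggt
Insr region 2, chr8:3153840-3153864, minus strand: aaaacatcagAGACTttcttctcac
Igf2r region 1, chr17:12683698-12683722, minus strand: cttacacatcTAACTccgtggtgcc
Irs1 region 5, chr1:82237420-82237444, minus strand: ttcattgactGAACTgcacgttcta
Irs2 region 1, chr8:11006790-11006814, minus strand: gagcatggatAGACCcctgagccac
Irs2 region 3, chr8:10986816-10986840, minus strand: attagataagGAACCaagaggcagg
Irs2 region 5, chr8:10985187-10985211, minus strand: ggtcaccacaGGACAcagatggcat
Foxo1 region 3, chr3:52347200-52347224, plus strand: ctgtagataaGGACTgtgccattgg
Foxo3 region 2, chr10:42186113-42186137, minus strand: cttacccgtgGAACAgaactctata
The site in Irs2 region 5 lay 2 nt from the median summit, that in Igf2r region 1 overlapped the stop codon, and those in Igf1r region 4 and Foxo1 region 3 were GGACT, a form that the writer complex is known to favour. On the transcript strand, 106 of the 113 summits (93.8%) had a DRACH within 50 nt and 25 (22.1%) had GGACT. Over all 34573 summits in single coding transcripts the shares were 95.2% and 21%, so the motif content of these genes was close to that of other methylated transcripts. A match says where the letters occur, not which adenosine was modified.

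**Figure D1:**
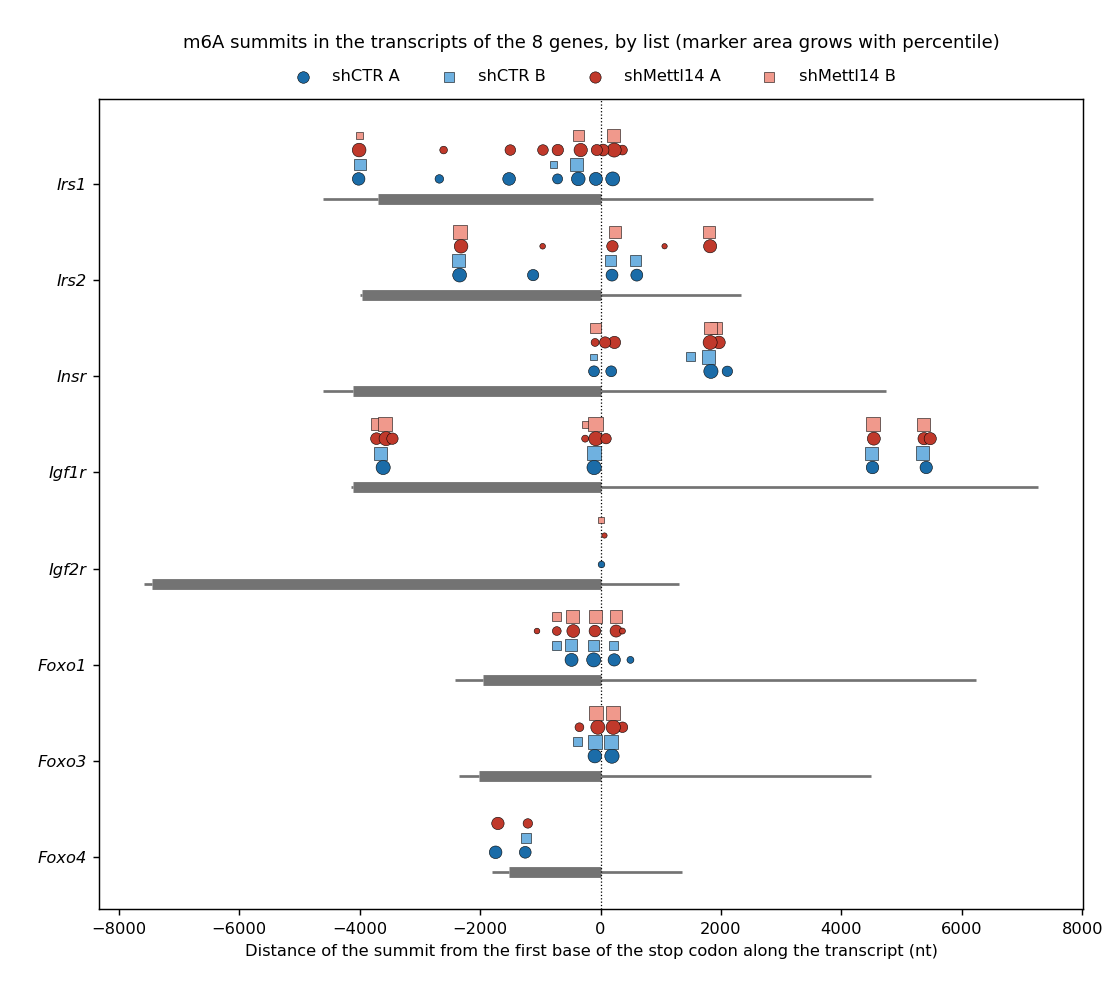
Summits of the 8 genes along their transcripts. The horizontal axis gives the distance from the first base of the stop codon in nt, thick grey bars are coding sequence and thin bars are UTRs, and each marker is 1 summit in 1 of the 4 lists with an area that grows with its percentile. Irs1 had summits from the 5′ UTR to the start of the 3′ UTR, Foxo3 only around the stop codon, and Irs2 had a pair of shMettl14 markers alone near the end of its 3′ UTR.

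Igf1r, the IGF1 receptor (chromosome 7, 67952827 to 68233668, plus strand), held the most fragments of the 8 genes, with a median of 54 over its 23 summits and a median background of 3.75 fragments. Its strongest region lay just upstream of the stop codon in exon 21 (region 3, 68225996 to 68226631), with strongest summits at −106 and −109 nt in shCTR A and B and at −77 and −83 nt in shMettl14 A and B. That region held 114 and 108 fragments in the shCTR lists and 92 and 102 in the shMettl14 lists. Its fold enrichment was 30.4 and 23.0 in shCTR and 18.4 and 37.4 in shMettl14, or 26.7 ± 5.27 and 27.9 ± 13.4 (mean ± SD, n = 2 each). All 4 values were among the highest of their lists, with percentiles between 97.8 and 99.98, and the shRNA groups overlapped.

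The other Igf1r regions held fewer fragments. Region 1, in the large exon 2 that encodes part of the ligand-binding domain of the receptor, held 77 and 65 fragments in shCTR and 64 and 61 in shMettl14. Regions 4 and 5 lay far into the 3′ UTR of 7267 nt, at 4504 to 4540 nt and 5343 to 5477 nt past the stop codon, and their strongest summits held 45 to 71 fragments. Region 2, in exon 3, had an exonic summit in shMettl14 A alone (18 fragments), while the overlapping peaks of shCTR A and shMettl14 B had their summits in the neighbouring intron.

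Insr, the insulin receptor itself (chromosome 8, 3122061 to 3279617, minus strand), had 2 regions, both in exon 21. Region 2 lay 1494 to 2107 nt past the stop codon and held 35 and 20 fragments in shCTR A and B and 23 and 18 in shMettl14 A and B. Its percentiles were 98.3, 84.2, 95.8 and 77.6 in the same order. Both A lists were above both B lists there, and the shRNA groups overlapped. Region 1 spanned the stop codon and was weaker, with 16, 7, 14 and 14 fragments at the strongest summit of each list.

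Igf2r, the mannose 6-phosphate receptor that binds IGF2 and carries it to lysosomes without a kinase domain (chromosome 17, 12682406 to 12769664, minus strand), had 1 region. It lay at the start of the 3′ UTR in exon 48, with 21 fragments in shCTR A, 16 in shMettl14 A, 15 in shMettl14 B and no call in shCTR B. These were among the weakest summits of their lists, with percentiles of 9.95, 0.969 and 8.01, on a background of 2.38 to 3.76 fragments within the range seen at Igf1r. The transcript of 8887 nt had no other summit in any of the 4 lists, although its coding sequence of 7452 nt was the longest of the 8.

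Irs1 (chromosome 1, 82233101 to 82291416, minus strand) had 23 summits in 5 regions, spread over the transcript. Its stop codon lies in exon 1, and an intron of 49172 nt begins 23 nt after its first base. Region 1, in the 5′ UTR, held 15 and 10 fragments in shCTR and 17 and 5 in shMettl14. Its percentiles of 73.5, 60.3, 89.8 and 15.2 gave the shMettl14 pair an SD of 52.7, the widest among the 14 regions found in all lists. Region 4 covered the last part of the coding sequence with 10 summits between −956 and −61 nt, and its strongest summits held 23, 16, 18 and 10 fragments in the order shCTR A, shCTR B, shMettl14 A and shMettl14 B.

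Region 5 of Irs1 lay beyond the intron, in the 3′ UTR of exon 2. It held 20 fragments in shCTR A, 18 in shMettl14 A and 11 in shMettl14 B, with percentiles of 94.3, 95.4 and 73.4, and was not called in shCTR B. It was thus strong in 3 lists and missing from 1 control list. Coding regions 2 and 3 were called in both A lists and in neither B list.

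Irs2, the docking protein of the same family (chromosome 8, 10984681 to 11008458, minus strand), had the lowest coverage, with a median of 10 fragments over 15 summits and a median background of 0.175 fragments. Its strongest region lay in the coding sequence of exon 1, at −2353 to −2316 nt (region 1, 11006560 to 11006912). That region held 23 and 21 fragments in shCTR and 22 and 23 in shMettl14 with percentiles of 91.9, 83.5, 89.0 and 91.3, and the groups overlapped on both measures. Region 3 had a summit 167 to 235 nt past the stop codon in every list, with 13 and 9 fragments in shCTR and 8 and 10 in shMettl14. Both shCTR lists had a further summit in it, 584 to 603 nt past the stop codon, with 10 and 9 fragments, and neither shMettl14 list did. In shCTR A this further summit had the higher fold enrichment of the pair and so entered the comparison below. Coding region 2 was called in both A lists and in neither B list. It held 9 fragments in shCTR A (percentile 56.8) and 4 in shMettl14 A (percentile 3.42). Region 4, in the 3′ UTR, was called in shMettl14 A alone, with 3 fragments and a percentile of 1.47.

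The Irs2 region that drew attention was region 5 (10985117 to 10985278), 1801 to 1821 nt past the stop codon in a 3′ UTR of 2329 nt. Its summit held 12 fragments in shMettl14 A, with a fold enrichment of 11.3 and a percentile of 81.7. In shMettl14 B it held 9 fragments, with a fold enrichment of 9.06 and a percentile of 59.0. Neither shCTR list had a peak there. A list without a peak gives no value, but the number of fragments that would have been called can be bounded. At the smallest −log10 p-value each shCTR list contains, 3 fragments would have sufficed on the list's genome-wide background, and 4 to 6 on the highest background seen at an Irs2 3′ UTR summit of that list. These limits borrow backgrounds from other positions, and the region was chosen for being called in the shMettl14 lists, so the values say nothing of why a shCTR call is missing.

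Region 5 of Irs2 was the only one of the 25 regions found in both shMettl14 lists and neither shCTR list (4.00%), and 1.79% of all regions had this pattern. No region of the 8 genes was found in both shCTR lists alone, against 1.71% of all regions. These counts rested on single lists. Without shCTR A the knockdown-only regions numbered 4, with Irs1 region 5, Igf1r region 2 and Igf2r region 1 added (16% of 25, against 6.47% of all regions in that setting). Without shMettl14 B they numbered 3, with Irs2 region 4 and Foxo1 region 1 added (12%, against 14.4%). Without shMettl14 A, 1 of 23 regions (Foxo4 region 2) became control-only (4.35%, against 7.80%). The pattern that set the A lists against the B lists was more frequent, at 4 of 25 regions (16%) in both A lists and neither B list, against 6.79% of all regions. The reverse, both B lists and neither A list, held 0 of the 25, against 1.21% of all regions. Both A lists contained more summits than either B list. Another 2 regions (8%) were found in shMettl14 A alone, against 12% of all.

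**Figure D2:**
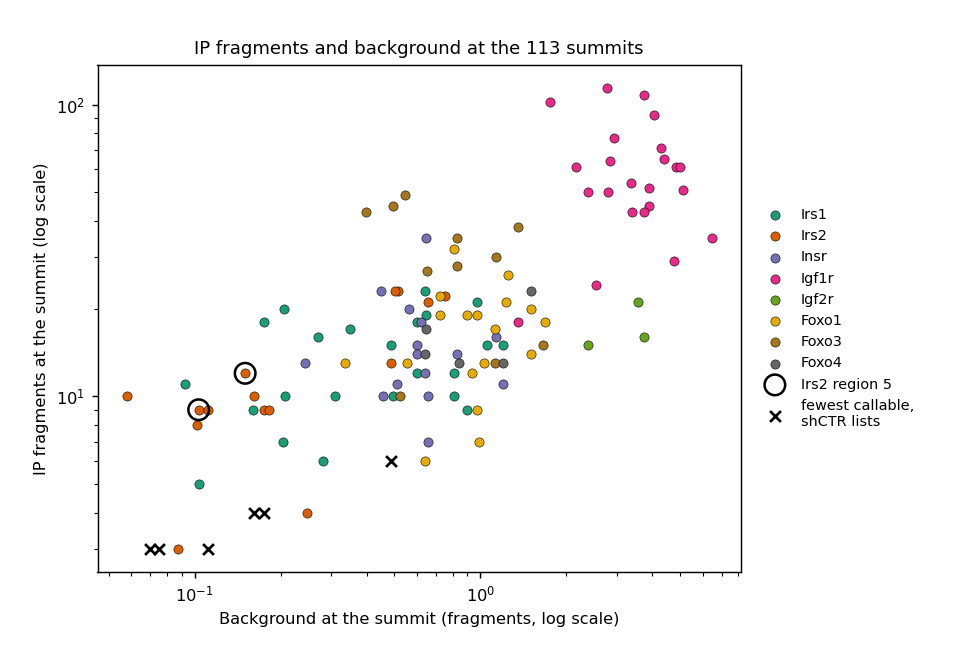
IP fragments against background at each of the 113 summits, both on log scales, coloured by gene. Circles mark Irs2 region 5 in the shMettl14 lists (12 and 9 fragments) and crosses mark the fewest fragments that the shCTR lists could have called at 3 backgrounds each (3 to 6). Igf1r summits lie at the highest backgrounds and Irs2 summits at the lowest.

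The FoxO factors bind the same DNA motif and drive genes of stress resistance, cell cycle arrest and catabolism. Foxo3 (chromosome 10, 42181841 to 42276755, minus strand) had the highest fold enrichment of the 8 genes in 3 of the 4 lists. Its summits lay on both sides of the stop codon, where an intron of 10170 nt begins 37 nt after its first base. In region 2, on the 3′ UTR side in exon 4, the strongest summits held 49 and 43 fragments in shCTR and 45 and 35 in shMettl14. Their fold enrichment was 32.3 and 31.5 in shCTR and 30.8 and 19.7 in shMettl14. Percentiles were at least 99.8 in 3 lists and 96.3 in shMettl14 B, and the shRNA groups overlapped by percentile and by the ranked score used below. Raw fold enrichment is not scaled between lists and no share over all regions was computed for it, so no separation is read from it. Region 1, at the end of the coding sequence in exon 3, held 30, 27, 38 and 28 fragments in the order shCTR A, shCTR B, shMettl14 A and shMettl14 B.

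Foxo1 (chromosome 3, 52268336 to 52353221, plus strand) had the same arrangement, with an intron that begins 16 nt after the first base of the stop codon. Region 2 ran over the end of the coding sequence in exon 2 with 11 summits, the strongest of which held 32 and 21 fragments in shCTR and 19 and 22 in shMettl14, at −113, −489, −452 and −80 nt. Region 3, in the 3′ UTR of exon 3, held 19 and 12 fragments in shCTR and 13 and 13 in shMettl14. In both regions the groups overlapped by percentile.

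Foxo4 (chromosome X, 101254528 to 101260873, plus strand) had no summit within 200 nt of its stop codon and none in its 3′ UTR. Its 2 regions lay in exon 1. The 5′ UTR region held 17 fragments in shCTR A and 23 in shMettl14 A, and was in neither B list. The coding region held 14 and 13 fragments in shCTR and 13 in shMettl14 A, and was not called in shMettl14 B. Foxo4 thus had no region in all 4 lists, as was the case for Igf2r.

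Of all 113 summits, 58 (51.3%) lay in coding sequence, 49 (43.4%) in 3′ UTRs and 6 (5.31%) in 5′ UTRs, against 66.1%, 31.3% and 2.58% of summits in all genes. Summits within 200 nt of a stop codon numbered 30 (26.5%), against 26.4% in all genes. The 5′ UTR summits were those of Irs1 (4) and Foxo4 (2). The 3′ UTRs of the 8 transcripts ran from 1304 nt (Igf2r) to 7267 nt (Igf1r), and these shares describe 8 transcripts only and were not tested.

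Whether the peaks changed their standing after knockdown was examined in the 14 regions found in all 4 lists (56.0% of 25, against 43.4% of all regions). The highest fold enrichment of each region was ranked within its list, turned into a normal score, and compared between shRNAs with limma over all 4929 such regions. None of the 14 had an adjusted p under 0.05, which was also so for 0% of all regions, and none had an unadjusted p under 0.05, against 4.93% of all. Fisher's exact test, named in the study's methods, was run here on the recovered fragments with replicates summed. It gave 0 of the 14 at an unadjusted p under 0.05 with an absolute log2 ratio over 1, against 0.446% of all regions. At an unadjusted p under 0.05 alone it gave 0, against 2.56%. Its ratios were scaled between the shRNAs, and 10 of the 14 were higher and 4 lower in shMettl14. Irs1 region 1, for example, had 25 fragments in shCTR, 22 in shMettl14 and a log2 ratio of 0.11. The median log2 ratio over all regions was 0.028, so, like the ranks, this test cannot show a change common to all regions. By rank, 8 regions were higher and 6 lower in shMettl14, with a median change of 0.04. The standard error of a single region was 0.50 to 0.58 on this scale, as large as most of the changes.

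The largest changes ran in opposite directions. Insr region 1 had the smallest p, with a change of 0.94 ± 0.53 (SE) and an adjusted p of 0.993 by limma. Irs1 region 4 had the largest decrease, −0.67 ± 0.50 (SE), with an adjusted p of 0.999 by limma, followed by Foxo3 region 2 at −0.64 ± 0.53 (SE). In these first 2 regions alone did the scores of the shRNA groups not overlap (14.3% of 14, against 32.8% of all regions), with 1 higher in shMettl14 (against 17% of all) and 1 lower (against 15.8%). On percentiles among all summits the groups overlapped in both regions. Irs1 region 4 had 83.8 in shCTR B and 84.3 in shMettl14 A, and Insr region 1 had 51.52 in shCTR A and 51.47 in shMettl14 B. Both changes also moved with single lists. That of Insr region 1 was 1.57 without shCTR A (unadjusted p = 0.0182, adjusted p = 0.803 by limma) and 0.33 without shCTR B, and leaving out shMettl14 A gave −1.03 for Irs1 region 4, whereas leaving out shMettl14 B gave −0.29. In Insr region 1 the strongest summit of shMettl14 A also lay elsewhere, at 232 nt past the stop codon, while the other lists had theirs between −115 and −85 nt. Its summit at −90 nt had a percentile of 20.6, inside the shCTR range of 8.90 to 51.5.

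**Figure D3:**
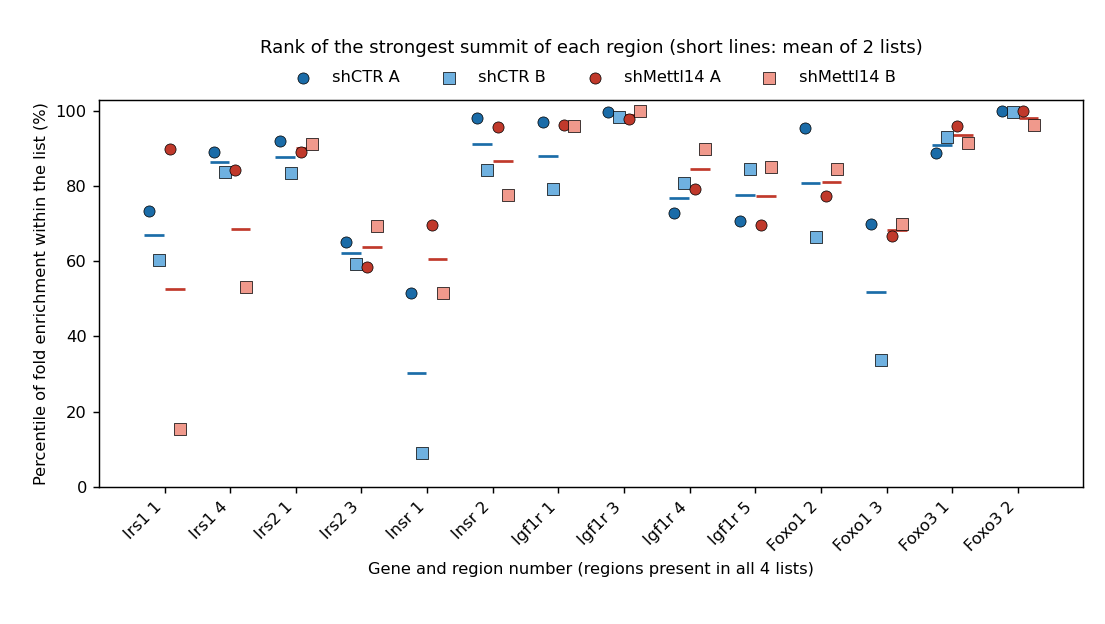
Percentile of fold enrichment of the strongest summit of each of the 14 regions found in all 4 lists, with 1 marker per list and short lines at the mean of each shRNA. Igf1r region 3 and Foxo3 region 2 lie above 96 in all 4 lists, and Irs1 region 1 and Insr region 1 spread most between replicates.

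**Figure D4:**
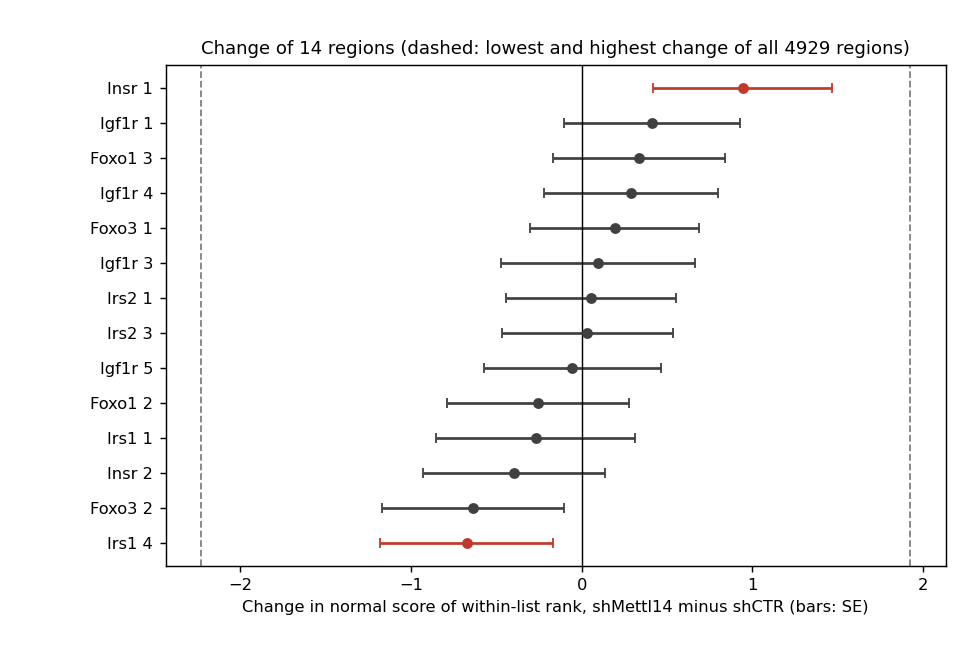
Change in the normal score of the within-list rank, shMettl14 minus shCTR, for the 14 regions, with bars for the SE of the limma fit. Red marks the 2 regions whose groups do not overlap (Insr region 1 and Irs1 region 4), and dashed lines give the lowest (−2.23) and highest (1.92) change among all 4929 regions.

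By gene, the strongest exonic summit could be compared for the 6 genes with a summit in all 4 lists. Foxo3 had the largest change, −0.65 ± 0.53 (SE), with an adjusted p of 0.995 by limma over 3690 genes. Insr changed by −0.42 ± 0.53 (SE), Foxo1 by −0.28 ± 0.52 (SE), Irs1 by −0.18 ± 0.50 (SE), Igf1r by 0.09 ± 0.57 (SE) and Irs2 by 0.06 ± 0.47 (SE). None passed an adjusted p of 0.05 (0% of all genes) or an unadjusted p of 0.05 (5.09% of all genes), and in none did the groups separate (34% of all genes). The knockdown-only region of Irs2 did not set its gene value, because region 1 was stronger in every list.

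The position of the summits, which the choice of genes did not use, differed between the lists in a regular way. This was noticed after the values had been seen. In 11 of the 14 regions the strongest summits of the 4 lists lay within 100 nt of each other. In 10 of these 11 the mean of the shMettl14 positions was 3′ of the shCTR mean, with a median shift of 25 nt. In 8 of the 11 (72.7%) both shMettl14 summits were 3′ of both shCTR summits, and in none were both 5′. In Igf1r region 4, for example, the summits lay at 4504 nt in shCTR B, 4518 nt in shCTR A, 4528 nt in shMettl14 B and 4540 nt in shMettl14 A. In Foxo3 region 2 they lay at 179, 190, 207 and 212 nt in the same order.

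This shift was shared by the whole transcriptome. Over 2801 regions treated alike, both shMettl14 summits were 3′ of both shCTR summits in 66.6%, and the median shift was 24.5 nt on the plus strand and 25 nt on the minus strand. The order of the lists was that of their shortest interval. Relative to the mean of a region, summits lay at a median of −19.8 nt in shCTR B, whose shortest interval was 170 bp, −5.00 nt in shCTR A (141 bp), 8.75 nt in shMettl14 B (112 bp) and 16.5 nt in shMettl14 A (97 bp). The 11 regions of the pathway genes gave −18.5, −7.00, 5.50 and 17.5 nt. Both shCTR lists had longer shortest intervals than both shMettl14 lists, so interval length and shRNA cannot be told apart in these lists.

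**Figure D5:**
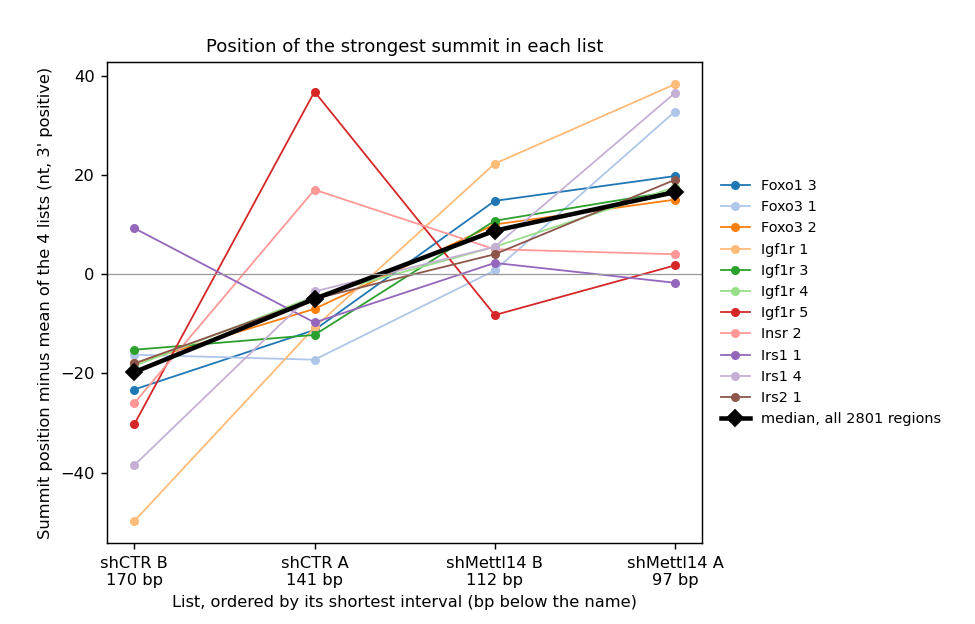
Position of the strongest summit in each list relative to the mean of the 4 lists (nt, positive toward the 3′ end), with lists ordered by their shortest interval in bp. Coloured lines are the 11 regions of the 8 genes and the black line is the median of all 2801 regions, which runs from −19.8 nt in shCTR B to 16.5 nt in shMettl14 A.

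The rest of the pathway was read from a list of 69 further genes, of which 34 had a summit and 23 had one in every list, with 186 summits in 49 regions. By role, summits were found in 2 of 11 ligands and binding proteins (Igfbp3 and Igfbp5), 12 of 15 adaptors and negative regulators, 5 of 9 TSC and mTOR genes, 8 of 16 FoxO targets and 0 of 4 further family members (Irs3, Irs4, Insrr and Foxo6). The genes with the most summits were Pik3r1 (20), the regulatory subunit that docks on Irs proteins, Rictor (15), a subunit of mTOR complex 2, and Sos1 (13), the exchange factor that links the receptors to Ras. Trib3, Rps6kb1, Ptpn11 and Cited2 followed with 8 each.

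Of the 27 regions of this list found in all 4 lists, 0 had an adjusted p under 0.05 by limma, and 3 had an unadjusted p under 0.05 (11.1%, 1 higher and 2 lower in shMettl14, against 4.93% of all regions). Regions called for 1 shRNA alone were 2 control-only and 1 knockdown-only. The control-only ones lay in the 3′ UTR of Pdk4, a FoxO target that restrains pyruvate oxidation (13 and 11 fragments in shCTR A and B), and in the coding sequence of Gab1, a docking protein related to the Irs family (12 and 12 fragments). The knockdown-only one lay in the 3′ UTR of Pik3cb, a catalytic subunit of phosphoinositide 3-kinase (9 and 8 fragments in shMettl14 A and B). These 3 were read as descriptions, at shares of 4.08% and 2.04% of the 49 regions against 1.71% and 1.79% of all. The counts moved with the setting. Without shCTR B, 5 of 47 regions were control-only (10.6%, against 11.3% of all). Without shMettl14 B, 5 of 48 were knockdown-only (10.4%, against 14.4%). At 100 bp overlap and with equal list sizes 0 were knockdown-only (against 1.29% and 1.03%).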

How the data were processed

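m6A-RIP-seq peak lists of 4 IP samples were analysed. The 4 input samples entered only as the background of the peak calls. Per the labels and methods, reads were aligned with STAR to mm10 (GRCm38), uniquely mapped reads were kept with SAMtools, and peaks were called with MACS2 against input, per sample. Versions and options are not given in the sources used here. The methods state a sequencing depth of single-end reads, but the mapped reads behind each list were not analysed here. The deposited lists give the fold enrichment (a ratio) of IP over background at each summit and −log10 of its p-value and q-value, as the authors' own values. The authors also deposited 2 files of intervals shared by replicates, with no value.

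The whole-number pileup and the background were solved from fold enrichment and −log10 p, and matched in 100% of summits (largest error 0.000151). The number of reads behind a list is not in it, so values were ranked within lists. A uniform loss of m6A leaves ranks in place. Summits were placed with GENCODE M21, using the complete transcript with the longest coding sequence. Regions were merged at 1 bp overlap. Normal scores were compared with limma 3.58.1 (lmFit, eBayes, two-sided, R 4.3.3), with Benjamini-Hochberg adjustment and a threshold of 0.05. With 2 lists per shRNA an exact permutation test of a single value cannot give a p below 0.333. The fit and the pileup recovery were tested on simulated data. Python 3.11.15, numpy 2.4.6, pandas 2.3.3, scipy 1.17.1 and matplotlib 3.10.9 were used.

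The genes and lists were chosen with earlier results of these data known. All 8 genes are described. Of the 69 pathway genes, those named have a region in both lists of 1 shRNA alone, or an adjusted p under 0.05, or are the 6 with the most summits (4 tied for the last places and all are given). The count of 1 group of the pathway list is not reported here. Other names in the pathway and marker lists were added after their values were seen. Alternatives were a replicate block, log2 fold enrichment, other ranked values, a −log10 q of at least 4, equal list sizes (8655 summits), 100 bp overlap, Fisher's exact test, the mean over summits, the interval files and leaving out each list. Those of the summit shift were chosen after seeing the data.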

Additional observations from a re-analysis of the deposited data

How the results depend on the processing

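No region or gene of the 8 passed an adjusted p of 0.05 by limma under any alternative run, and the pathway regions did not either. With the replicate block 0 of 14 regions passed (smallest p 0.0696, adjusted p 0.854), and 0 of 6 genes and 0 of 27 pathway regions did. The letters A and B were not used as pairs, since the deviations of same-letter lists correlated at only 0.0795 over 4929 regions. Of 219 alternative values of single regions and genes, 184 kept the direction of the reported change. The cause of the turned signs was not tested. With pileup ranked, Irs2 region 3 was at −0.0889, Foxo3 region 2 at 0.13 and the Foxo3 gene value at 0.13. With equal list sizes Irs2 region 3 was at −0.0221, and with −log10 p ranked the Irs1 gene value was at 0.0297. With the mean over all summits the gene values were −0.30 for Irs2, 0.60 for Insr and −0.56 for Igf1r.

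Leaving out 1 list at a time turned the sign of the change in 11 of the 14 regions and all 6 genes. The ranges were −1.31 to 0.75 for Irs1 region 1, −0.13 to 0.24 for Irs2 region 1, −0.26 to 0.33 for Irs2 region 3, −0.93 to 0.16 for Insr region 2, and −0.12 to 0.94, −0.74 to 0.94, −0.0948 to 0.67 and −0.47 to 0.37 for Igf1r regions 1, 3, 4 and 5. They were −0.88 to 0.39 for Foxo1 region 2, −0.0213 to 0.40 for Foxo3 region 1 and −1.34 to 0.0728 for Foxo3 region 2. By gene they were −0.67 to 0.30 for Irs1, −0.14 to 0.25 for Irs2, −0.99 to 0.17 for Insr, −0.78 to 0.95 for Igf1r, −0.92 to 0.38 for Foxo1 and −1.39 to 0.0948 for Foxo3. The other 3 regions kept their sign, with ranges of 0.33 to 1.57 for Insr region 1, −1.03 to −0.29 for Irs1 region 4 and 0.0177 to 0.66 for Foxo1 region 3.

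Knockdown-only regions numbered 1 to 4 and control-only regions 0 to 1 when 1 list was left out. With equal list sizes 1 region was control-only (Foxo4 region 2). In the authors' interval files, 4 of 19 shCTR intervals in these genes had no shMettl14 counterpart (21.1%, against 17% of all shCTR intervals), among them 1 in Irs2 (10986310 to 10986528), and 4 of 19 shMettl14 intervals had no shCTR counterpart (21.1%, against 15.5%), among them Irs2 region 5. The summit shift was 26.3 nt with no limit on distance and 19.5 to 30.5 nt without 1 list. The few fragments per summit limit single peaks, and counts below the calling threshold are unknown.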

Other observations

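The region of Irs2 called in both shMettl14 lists and neither shCTR list was compared with others of its kind. There were 44 such regions with summits in the 3′ UTR of a single gene, with a median over regions of 26.4 for the mean percentile of fold enrichment in the 2 shMettl14 lists. The Irs2 region had a mean percentile of 70.4 and ranked 1 of the 44. The 3 nearest to it by this measure lay in Mlxip (67.5), a glucose-sensing transcription factor, Preb (62.2) and Ptch1 (62.0), the Hedgehog receptor. Their summits held 14 and 17, 10 and 9, and 12 and 15 fragments in shMettl14 A and B, against medians of 8 and 6 over the 44 regions. Because the Irs2 region ranked 1, the 3 nearest were those ranked 2 to 4, so their fragments above the medians are no separate sign of likeness. The likeness was measured over 2 lists and includes the regions' selection by presence, so it is given as a description.

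Among FoxO target genes, Fbxo32, an atrophy-associated ubiquitin ligase subunit, had the peak with the highest percentile in every list. Its percentiles were 99.4 and 98 in shCTR and 97.4 and 95.6 in shMettl14. No share of separated genes was computed for percentiles, so no separation of the groups is read from them. On the ranked score, a different measure, the groups of 34% of all genes did not overlap. Fbxo32 was picked out after its values were seen.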
